A study of Mus musculus with 3 samples.

Results

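The chymase-locus proteases are a cluster of serine protease genes that lie side by side on mouse chromosome 14 and encode enzymes stored in the granules of mast cells, basophils, neutrophils and cytotoxic lymphocytes. The 9 genes described here are Cma1, Cma2, Mcpt1, Mcpt2, Mcpt4, Mcpt8, Mcpt9, Ctsg and Gzmb, chosen by name, out of 22180 genes measured in all. Each was read by 1 probe set that names no other gene. Their transcript levels were compared in 3 populations sorted from the peritoneal cavity of naive female BALB/c mice, which were 10 to 11 weeks old. Cells of 5 mice were pooled, and 100 cells of each population were lysed, amplified and hybridised to 1 array. Mast cell progenitors and mature mast cells were both c-kit high, FcεRI positive and T1/ST2 positive, with low side scatter and high integrin β7 in progenitors, and high side scatter and lower integrin β7 in mature cells. Type 2 innate lymphoid cells, a lymphoid population, were FcεRI negative, c-kit negative or low, and positive for T1/ST2, CD127 and CD25. The labels name no transgene and no treatment. With 1 array a population and no replicates, differences are given without error or test.

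Most chymases cut proteins after aromatic residues, and they are kept in mast cell granules bound to the heparin chains of the proteoglycan serglycin. They are made as inactive precursors that the dipeptidyl peptidase cathepsin C trims. In mice, Cma1 and Mcpt4 mark connective tissue mast cells such as those of the peritoneum, Mcpt1 and Mcpt2 mark mucosal mast cells, Mcpt9 is known from uterine mast cells, and Mcpt8 marks basophils. Ctsg encodes cathepsin G, known from neutrophil precursors and some mast cells. Gzmb encodes granzyme B of cytotoxic lymphocytes.

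Levels are log2 values from RMA, and a gene was counted as different at a log2 gap of 2 or more between arrays (4-fold), with the brighter level above the median of its array. Those medians were 6.32 on the progenitor array, and 6.30 on the mature and lymphoid arrays. A level shows where a probe set lies on the scale of its array, and levels of different genes are not set against each other as amounts. The values are coarse: 47.9% of the genes had exactly the same level on all 3 arrays. Of 9 mast cell marker genes, 9 were above the array median in mature cells, 6 in progenitors and 3 in innate lymphoid cells. The markers below the median in progenitors were Fcer1a, Ms4a2 and Hdc. Transcripts of 2 sort markers were near the lymphoid level in progenitors. Kit was at 6.89 on the progenitor array, 10.29 on the mature array and 6.63 on the lymphoid array. Fcer1a was at 5.37, 8.87 and 5.05 on the same arrays. Of 9 innate lymphoid markers, 8 were above the median on the lymphoid array and 5 on each mast cell array. Il7r, Klrg1 and Arg1 were at least 4-fold higher on the lymphoid array than on each mast cell array. Of all genes, 0.888% were so against progenitors and 0.401% against mature cells. The other 6 lymphoid markers did not reach 2-fold, and Il13 was highest in progenitors, at 7.65 against 7.41. Of 41 measured markers of basophils, macrophages, B cells, T and NK cells, neutrophils and eosinophils, 0 differed by 2-fold in any comparison. Of all 22180 genes, 541 were counted at 2-fold between progenitors and mature cells. Against innate lymphoid cells the counts were 587 for progenitors and 577 for mature cells. All 8 macrophage markers lay above the median on every array. Whether macrophage transcripts were present in these sorts was not tested. A level above the median was not taken by itself to show that a transcript is present.

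Cma1 and Mcpt4 were bright in both mast cell populations, and Cma2 was bright in mature cells only on these arrays. Cma1, which encodes a chymase-family protease of connective tissue mast cells, was at 10.42 on the progenitor array, 11.76 on the mature array and 6.85 on the lymphoid array. The mast cell arrays were thus high and the lymphoid array low, although its level there still exceeded the array median. Cma1 was 2.54-fold lower in progenitors than in mature cells. Against innate lymphoid cells it was 11.9-fold higher in progenitors and 30.2-fold higher in mature cells. In pooled cells such as these, fewer cells with a transcript and less transcript per cell cannot be told apart.

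Mcpt4, which encodes the main chymotrypsin-like chymase of these cells, was at 9.73 on the progenitor array, 11.20 on the mature array and 4.70 on the lymphoid array. Its order over the arrays was that of Cma1, but its lymphoid level lay below the array median, so folds against it are given over that median as lower bounds. Mcpt4 was at least 10.7-fold higher in progenitors and at least 29.8-fold higher in mature cells than in innate lymphoid cells. Between the mast cell populations it was 2.78-fold lower in progenitors, close to the 2.54-fold of Cma1.

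Cma2, a chymase-family gene next to Cma1, was at 5.51 on the progenitor array, 9.51 on the mature array and 5.29 on the lymphoid array. Only the mature array lay above its median, and the progenitor and lymphoid levels were 0.22 apart. Cma2 in progenitors was lower than in mature cells by at least 9.14-fold, and it was at least 9.22-fold higher in mature than in innate lymphoid cells. In the same comparison of the mast cell populations Cma1 was 2.54-fold and Mcpt4 2.78-fold lower in progenitors.

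**Figure D1:**
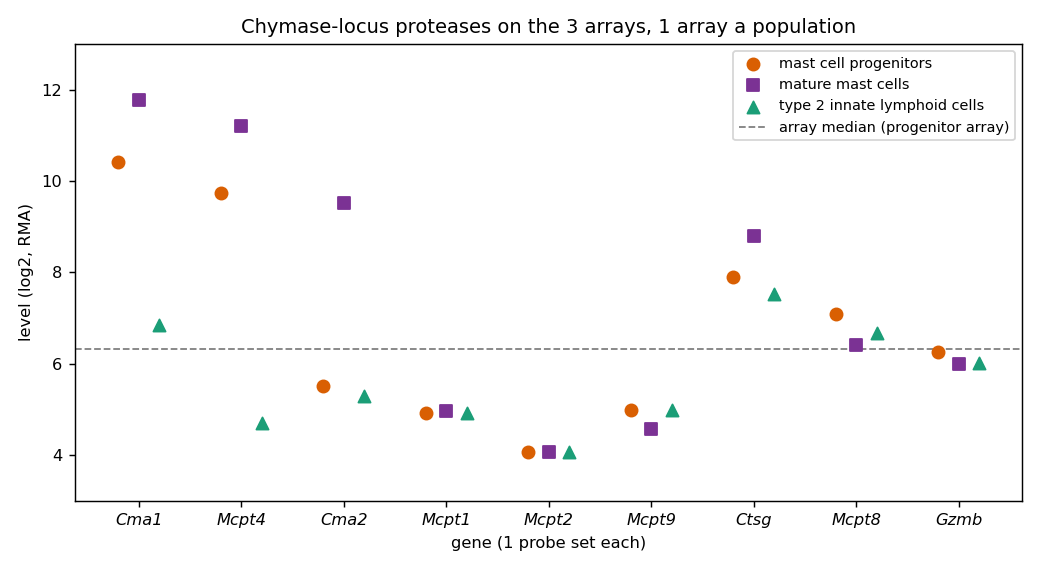
Level of each chymase-locus protease (log2, RMA) on the arrays of mast cell progenitors (circles), mature mast cells (squares) and type 2 innate lymphoid cells (triangles), with 1 array a population and no error bars, with the median of the progenitor array as a dashed line. Cma1 and Mcpt4 are high on both mast cell arrays, Cma2 is high on the mature array only, and the remaining genes vary by at most 1.28.

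Between the mast cell populations, 1 of the 9 genes (Cma2) was counted as lower in progenitors at 4-fold, 0 as higher, and 8 did not reach 4-fold. Over all genes, 0.834% were counted as lower in progenitors and 0.113% as higher. Against innate lymphoid cells, 2 of 9 were at least 4-fold higher in progenitors (Cma1 and Mcpt4) and 0 lower. Over all genes the shares were 0.207% higher and 0.888% lower. In mature mast cells 3 of 9 were at least 4-fold higher than in innate lymphoid cells (Cma1, Mcpt4 and Cma2) and 0 lower, beside 0.573% and 0.401% of all genes. The comparisons share arrays, so their counts are not independent.

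With the limit at 2-fold, 3 of 9 were lower in progenitors than in mature cells, as Cma1 and Mcpt4 joined Cma2, against 1.93% of all genes. Against innate lymphoid cells the 2-fold counts were 2 of 9 higher in progenitors and 4 of 9 higher in mature cells, with 0.766% and 1.34% of all genes. The median difference over the 9 genes was -0.04 for progenitors minus mature cells, 0.25 for progenitors minus innate lymphoid cells and 0.04 for mature minus innate lymphoid cells, beside 0 for all genes in each. Of the 9 genes, 4 stayed below the array median on every array, and 5 passed it on at least 1.

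**Figure D2:**
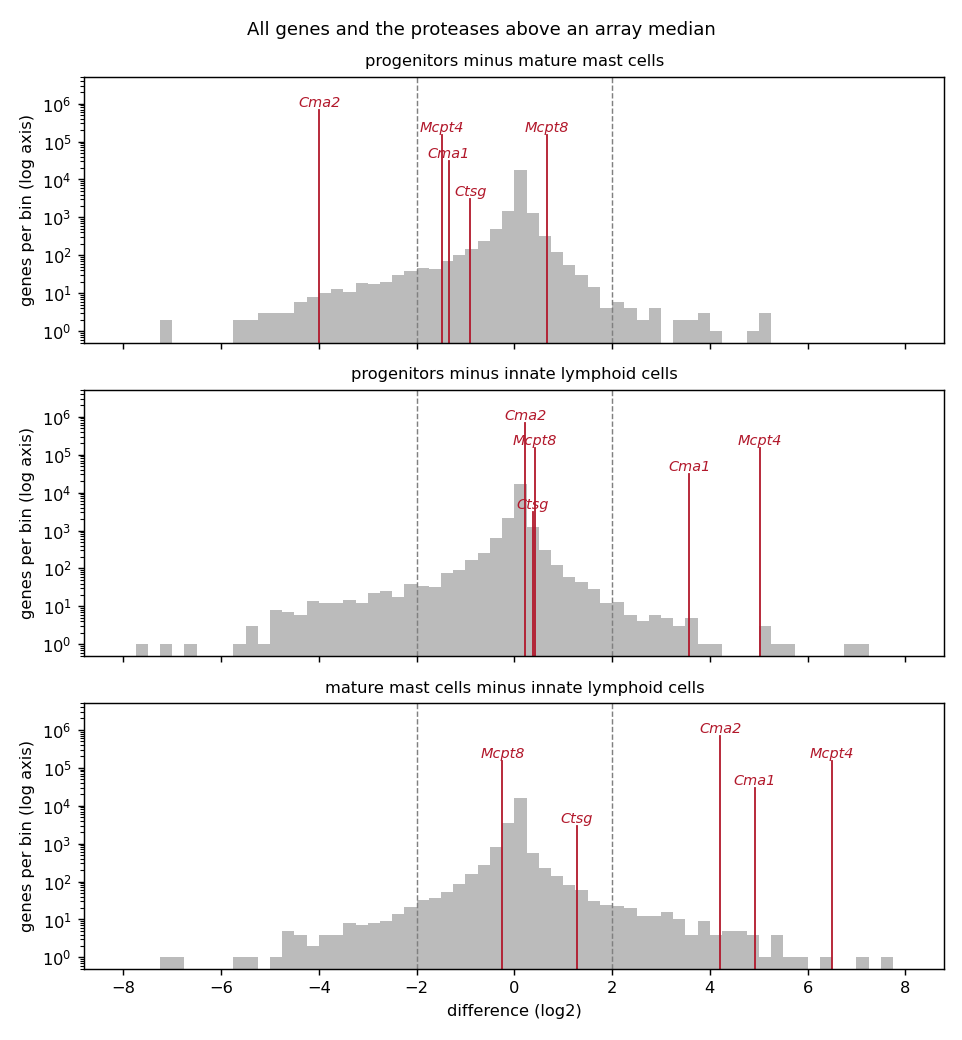
Number of genes (log axis) by measured log2 difference in bins of 0.25 for each pair of arrays, over all 22180 genes, with red lines at the 5 proteases that exceeded an array median and dashed lines at 4-fold. Mcpt4 and Cma1 lie far out on the mast cell side of both comparisons with innate lymphoid cells, and Cma2 does so for mature cells only.

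The proteases of mucosal and uterine mast cells stayed dim on all arrays. Mcpt1 was at 4.92 on the progenitor array, 4.96 on the mature array and 4.92 on the lymphoid array. Mcpt2 was at 4.07 on every array. Mcpt9 was at 4.99 on the progenitor array, 4.56 on the mature array and 4.99 on the lymphoid array. All these levels lie below the array medians, where a transcript at a low level and background signal are not separated, so a difference in these genes would not have been seen unless it rose above the background. The genes of the cluster are related in sequence, and how much of one transcript the probe set of another detects was not tested.

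The upstream sequences of Mcpt4 and Mcpt1 are shown, with that of Cma1, because the pair is closely alike upstream. Mcpt4 was nonetheless over 4-fold higher in each mast cell population than in innate lymphoid cells, while Mcpt1 stayed dim. The sequences come from RefSeq on GRCm38.p6, the C57BL/6J reference and not the BALB/c strain studied, and cover the 250 bases before each annotated start, 5′ to 3′ on the strand of the gene. Of the 9 genes, 7 matched this table, and Cma2 and Mcpt2 did not. Capitals mark every match to the GATA core GATAA, the TATA box letters TATAAA, the RUNX core TGTGGT and the E-box letters CANNTG, searched on both strands, where N is any base.
Mcpt4 (chr14:56062311-56062560, minus strand): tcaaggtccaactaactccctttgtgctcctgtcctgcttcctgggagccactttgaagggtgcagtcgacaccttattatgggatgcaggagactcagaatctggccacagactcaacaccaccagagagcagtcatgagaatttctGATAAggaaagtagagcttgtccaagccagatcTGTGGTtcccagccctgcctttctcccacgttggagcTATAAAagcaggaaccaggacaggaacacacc
Mcpt1 (chr14:56017714-56017963, plus strand): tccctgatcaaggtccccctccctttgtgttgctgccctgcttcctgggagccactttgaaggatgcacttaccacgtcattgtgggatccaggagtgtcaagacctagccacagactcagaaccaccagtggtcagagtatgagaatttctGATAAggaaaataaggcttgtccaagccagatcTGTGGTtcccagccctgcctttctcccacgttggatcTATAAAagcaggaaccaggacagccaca
Cma1 (chr14:55944676-55944925, minus strand): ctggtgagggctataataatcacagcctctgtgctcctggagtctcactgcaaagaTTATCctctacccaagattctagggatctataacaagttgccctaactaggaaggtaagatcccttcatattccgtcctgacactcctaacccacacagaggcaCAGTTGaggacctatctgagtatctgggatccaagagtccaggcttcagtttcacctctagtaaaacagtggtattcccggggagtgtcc

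The upstream sequences of Mcpt4 and Mcpt1 shared 209 identical bases over 258 aligned columns, or 81.0%. The other 20 pairs among the 7 matched genes ranged from 39.4% to 50.4%, with Cma1 and Mcpt4 at 47.5%. Between 75 and 51 bases before the start, all 25 bases of Mcpt4 were identical in Mcpt1. In Mcpt4 the GATAA match starts 102 bases before the annotated start, and in Mcpt1 it starts 98 bases before. TGTGGT starts 69 and 65 bases before, and TATAAA starts 32 and 28 bases before.

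The motifs stand in the same order upstream of both genes. Cma1 holds GATAA on the opposite strand 194 bases before its start and the E-box letters CANNTG 90 bases before, and no match to the other motifs in this window. Of the 32851 upstream windows of the same length in the table, 22.6% held GATAA, 12.4% TATAAA, 14.05% TGTGGT and 66.2% CANNTG. Among the 7 genes GATAA was found in 3 (Cma1, Mcpt4 and Mcpt1), TATAAA in 3, TGTGGT in 5 and CANNTG in 5. No match overlapped another in the sequences printed. A match describes letters and was not tested as a binding site.

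**Figure D3:**
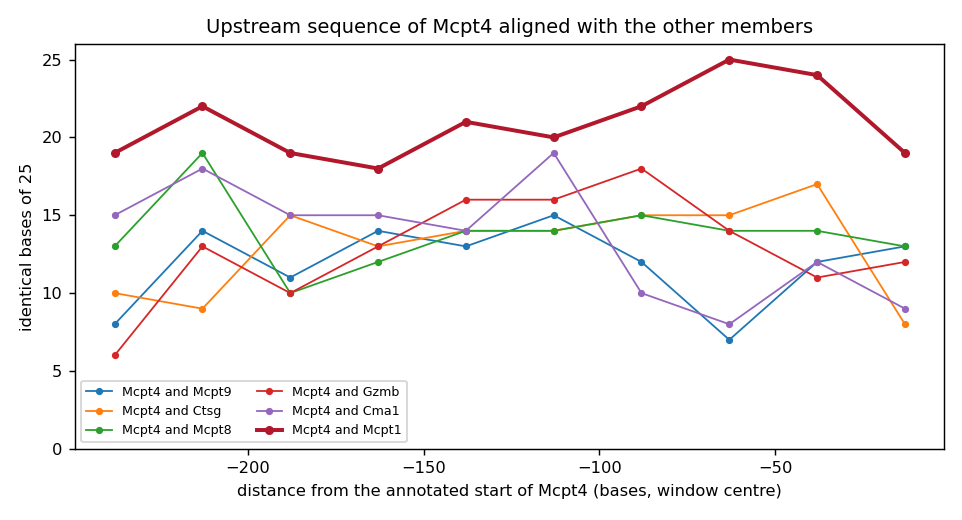
Identical bases in each window of 25 bases upstream of Mcpt4 (y axis, of 25) against the distance of the window centre from the annotated start of Mcpt4 (x axis, bases), for its alignment with each of 6 other chymase-locus genes. Mcpt1 shares 18 to 25 bases in all 10 windows, and more than any other gene in each.

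Ctsg, Mcpt8 and Gzmb, the genes known from other granulocytes and from lymphocytes, did not reach 4-fold in any comparison. Ctsg was at 7.90 on the progenitor array, 8.80 on the mature array and 7.52 on the lymphoid array. All 3 levels were above the array medians, which does not by itself show a transcript, and the mature array was the highest. Ctsg in progenitors was 1.87-fold below mature cells, and it was 2.42-fold higher in mature than in innate lymphoid cells. The levels in progenitors and innate lymphoid cells were 0.37 apart.

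Neutrophil and promyelocyte markers showed small differences, and a cell source of Ctsg was not tested. Of 8 such markers 0 differed by 2-fold between any pair of arrays, and Ctsg did so only between mature and innate lymphoid cells. The widest gap was 0.56, for Ly6g, lower in progenitors than in innate lymphoid cells. The mean level of the 8 markers was 6.38 on the progenitor array, 6.27 on the mature array and 6.37 on the lymphoid array. Elane and Prtn3, which encode the neutrophil proteases elastase and proteinase, were at 6.90 and 6.96 in progenitors and 6.89 and 6.96 in mature cells. Mpo, the myeloperoxidase gene, was lower in mature cells at 7.09, against 7.33 on the other arrays.

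Mcpt8, the basophil protease gene, was at 7.08 on the progenitor array, 6.42 on the mature array and 6.67 on the lymphoid array. It was the only one of the 5 brighter genes whose level was highest in progenitors, by 0.66 over mature cells, which is below 2-fold. Of the 7 basophil markers, a list that includes Mcpt8 and Gzmb, 0 differed by 2-fold, with mean levels of 6.50, 6.46 and 6.40 on the progenitor, mature and lymphoid arrays. Prss34, another basophil protease gene, was highest in mature cells, at 7.67 against 7.11 in progenitors and in innate lymphoid cells.

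Gzmb was at 6.26 on the progenitor array, 6.00 on the mature array and 6.01 on the lymphoid array, below the median of every array. The other granzymes of the cluster were dim too. Gzmc, Gzmd, Gzmf, Gzmg and Gzmn, known mainly from cytotoxic lymphocytes, all lay below the medians, and none of the 5 reached 2-fold in any comparison. Gzmf showed the widest gap, at 5.17 in progenitors and 4.59 on the other arrays. Gzme was not measured on its own, and the probe set that names both Gzme and Gzmd was at 3.23 on every array.

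Along the chromosome the genes with 4-fold differences did not form an unbroken block. In the RefSeq order of 15 protein-coding genes, of which 14 were measured on their own, Cma1 stands first and Cma2 next, followed by Mcpt1, Mcpt2 and Mcpt9, then Mcpt4, Mcpt8 and Ctsg, the 6 other granzymes, and Gzmb at the far end. Mcpt4 is thus separated from Cma2 by 3 genes that stayed dim, and Mcpt8 and Ctsg, with differences under 4-fold, stand beside it on the other side. The span of Mcpt9 lies inside that annotated for Mcpt2, and the pseudogene Mcpt-ps1 overlaps Cma2 in part. Of the 3 measured protein-coding genes on each side of the cluster, 5 of 6 had the same level on all 3 arrays. That share over all genes was 47.9%. Cenpj, a centrosome gene, varied by 0.17. Khnyn, Atp12a, Rnf17 and Cenpj lay below the array medians, where a difference may not be seen.

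**Figure D4:**
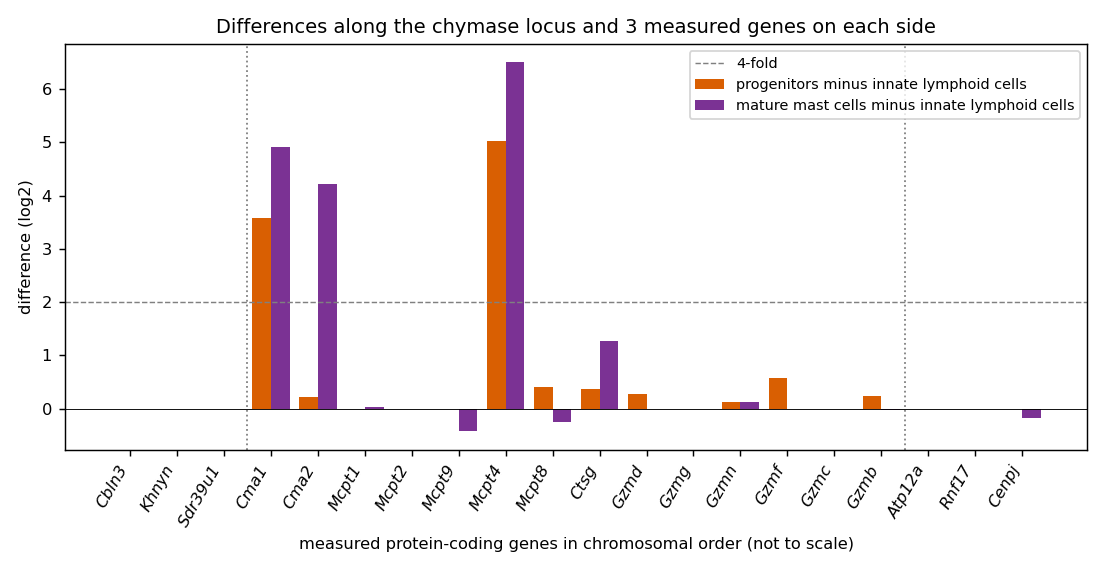
Log2 difference from innate lymphoid cells of progenitors (orange) and mature mast cells (purple) for the 14 measured genes of the cluster and 3 measured genes on each side, in chromosomal order and not to scale; dotted lines bound the cluster and a dashed line marks 4-fold. Bars past 4-fold occur at Cma1, Cma2 in mature cells, and Mcpt4, with Mcpt1, Mcpt2 and Mcpt9 near 0 between them.

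The genes with the most similar pattern were sought among 290 genes with a 4-fold difference in any comparison, leaving out the 9 proteases. Likeness was the distance between the 3 levels after each gene was centred on its own mean, so smaller is more alike, and 3 arrays give a description only. For Cma1 the nearest genes were Tyrobp (distance 0.32), Dpep2 (0.63), Aldh2 (1.11), Cd63 (1.17) and Mrgprb1 (1.31). Tyrobp, a signalling adaptor of activating receptors, was at 9.51 on the progenitor array, 11.15 on the mature array and 6.37 on the lymphoid array. Dpep2, a membrane dipeptidase gene, was at 7.54, 8.84 and 4.71 on the same arrays. The distances use levels below the array medians as measured. With such levels set to the median, an alternative chosen after the values were seen, Tyrobp stayed the nearest of the 290 to Cma1, 4 of the 5 named genes were still among the nearest 5, and Dpep2 ranked 8. Mcpt4 lay at 1.24 from Cma1 as measured and at 0.12 with its lymphoid level set to the median, where none of the 290 was closer.

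For Mcpt4 the nearest gene was Cpa3, which encodes mast cell carboxypeptidase, at a distance of 1.41, followed by Tyrobp, Dpep2, Mrgprb1 and Aldh2. With low levels set to the median, Tyrobp was nearest to Mcpt4, at 0.21, and Cpa3 ranked 7. Cma1 was closer to Mcpt4 than any of the 290 genes in both settings. The genes nearest to Cma2 were Ndst2 (0.20), a heparin sulfation enzyme, Tph1 (0.22), the enzyme that begins serotonin synthesis, Ss18l2 (0.27), Zfp507 (0.33) and Fcer1a (0.36), the IgE-binding receptor chain. Each of these was highest on the mature array, which follows from how they were chosen. Ndst2 and Ss18l2 also lay above the medians on the progenitor and lymphoid arrays, unlike Cma2. Cma2 was below the median on 2 of the 3 arrays, and with low levels set to the median only Tph1 of these 5 genes was among its nearest 5. Cma1 lay at 2.50 from Cma2 as measured and at 2.52 with low levels at the median, and Mcpt4 lay at 3.40 and 2.41.

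**Figure D5:**
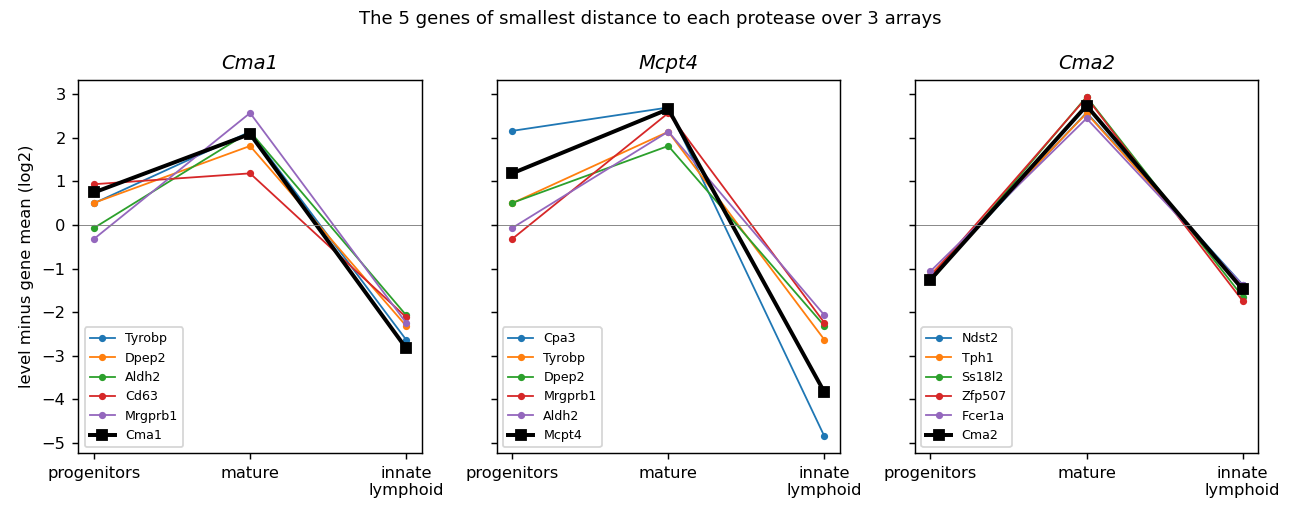
Levels centred on each gene's mean (log2) on the 3 arrays for Cma1, Mcpt4 and Cma2 (black) and the 5 nearest of 290 genes for each (colours). Cma1 and Mcpt4 and their neighbours are lowest in innate lymphoid cells, whereas Cma2 and its neighbours are low in progenitors and innate lymphoid cells alike.

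Granule proteases encoded elsewhere in the genome were also uneven. Of 11 such genes, Tpsb2, a tryptase gene, alone was counted between the mast cell populations, at 8.94 in progenitors against 11.74. Over all genes, 0.834% were 4-fold lower in progenitors. Against innate lymphoid cells, Cpa3 alone was at least 4-fold higher in progenitors, and Cpa3 and Tpsb2 were in mature cells. The shares of all genes were 0.207% for progenitors and 0.573% for mature cells. Tpsab1, the other main tryptase gene, was at 8.26 on the progenitor array, 8.63 on the mature array and 7.80 on the lymphoid array. Gzma and Prf1, which encode granzyme A and perforin of cytotoxic lymphocytes, had the same level on all arrays.

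Genes listed for the storage and maturation of chymases, with genes of histamine handling, were lower in progenitors where the mast cell populations differed. Compared with mature cells, 1 of 11 measured genes was 4-fold lower or more, beside 0.834% of all genes. At 2-fold or more 4 were lower and 0 higher, beside 1.93% of all genes lower. The 4 were Ndst2 (6.81 against 10.59), the heparan chain polymerase gene Ext1 (7.08 against 8.36), the histamine-forming enzyme gene Hdc (5.59 against 7.05) and the serglycin gene Srgn (8.13 against 9.20). The progenitor level of Hdc lay below the array median, so its gap may not be a true 2-fold difference. In progenitors 0 of the 11 reached 2-fold against innate lymphoid cells, beside 587 of all 22180 genes in either direction, whereas Cma1 and Mcpt4 did. Ctsc, which encodes cathepsin C, was at 5.81 on every array, below the medians.

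Of 9 measured protease inhibitor genes, 1 reached 2-fold in any comparison. Of all 22180 genes, 541 did so between progenitors and mature cells, 587 between progenitors and innate lymphoid cells, and 577 between mature and innate lymphoid cells. Serpinb1a, which encodes an inhibitor of elastase-like and chymotrypsin-like proteases, was at 8.27 on the progenitor array, 10.71 on the mature array and 6.73 on the lymphoid array. Its order over the arrays was that of Cma1 and Mcpt4, and it was 5.41-fold lower in progenitors than in mature cells. Serpinb9, which encodes an inhibitor of granzyme B in mice, was at 7.22 on every array. Of 15 transcription factor genes known upstream of mast cell proteases, 0 reached 2-fold in any comparison. The 541, 587 and 577 of all 22180 genes above are the counts to set beside it. Among the 15 factors, 6 had the same level on all arrays, beside 47.9% of all genes. Mitf, a factor known to act on mouse chymase genes, was at 6.69 on each array. Gata2 was at 7.59 in both mast cell populations and 7.50 in innate lymphoid cells. Gata3 and Rora, listed here as innate lymphoid markers, were flat too. Gata3 was at 6.76 in both mast cell populations and 6.82 in innate lymphoid cells, and Rora at 6.64 on each array. A flat level on these arrays therefore does not show equal expression.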

How the data were processed

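Transcript levels of 3 sorted populations were measured with 1 array each. The values are log2 levels of 41345 probe sets, which the authors made with RMA, per the submitters' processing notes; the log2 scale was read from the deposited values, which run from 2.23 to 13.7. Software, version and genome build are not given in the sources used here. Precision is limited by the number of arrays.

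By the platform's annotation 23521 probe sets named 1 gene, 1814 several and 16010 none. The brightest probe set on average stood for a gene. Gene identifiers matched the mouse RefSeq table of GRCm38.p6 for 21994 of 22180 genes, which was used for names and gene order only. Differences of log2 levels were taken with pandas 2.3.3 in Python 3.11.15. No test was possible with 1 array a group. The counting step was run on simulated data with added differences larger than the 4-fold limit. Such a run checks the code and says nothing of the error of these arrays. Upstream sequences were aligned pairwise end to end with Biopython 1.88 (match 2, mismatch -1, gap opening -5, gap extension -0.5). Named genes were the 9 proteases, members of fixed gene lists and the 5 genes nearest in pattern to each protease past 4-fold, without provisional, microRNA, small nucleolar RNA and olfactory receptor names. The proteases, lists and rule were chosen with earlier results of these data known. Motifs, alignments and flanking genes were chosen after the levels were seen. Alternatives varied the floor, the fold, the scaling, the probe sets used and the low levels behind the distances.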

Additional observations from a re-analysis of the deposited data

How the results depend on the processing

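The counts of proteases past 4-fold were 1, 2 and 3 in the comparisons of progenitors with mature cells, progenitors with innate lymphoid cells, and mature with innate lymphoid cells. They were the same, with the same genes, with no floor, with a floor at the 75th percentile, with arrays set to a common median, and after quantile normalization. At 2-fold in place of 4-fold the first count was 3, the second 2 and the third 4, by construction of the lower limit. Under the common median and the quantile normalization, 54 of 54 recomputed differences of single proteases moved by at most 0.23 on the log2 scale, and none past 4-fold changed direction. The mean of probe sets and the inclusion of probe sets of several genes could not move a protease, since 1 probe set reads each. Setting levels below an array median to it, chosen after seeing the data, changed the distance in pattern of Mcpt4 from Cma1 from 1.24 to 0.12. No paired analysis was possible because each population has 1 array. Without replicates, no setting bears on the error between mice, sorts or amplifications, and levels below the array medians limit what can be seen of the dim genes.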
